A study of Mus musculus with 27 samples.

Results

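The genes described here encode the nuclear subunits of respiratory complexes II to V, together with cytochrome c, in single muscle fibers of mice that lack Smn1 in skeletal muscle. They were chosen by name alone, as the array probes whose gene name begins with Uqcr, Uqcc, Cox4 to Cox8 or Atp5, or is Sdha, Sdhb, Sdhc, Sdhd, Cyc1 or Cycs. The rule found 51 genes on 76 of the 55681 probes that are no controls. Of these genes, 47 encode a subunit or cytochrome c, and 44 of them had a value on enough arrays to be tested among 16636 genes. The other 4 names belong to no subunit. Uqcc is an assembly factor of complex III, and Atp5s, Atp5sl and Cox4nb carry the name of a complex without being counted among its subunits.

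The respiratory chain sits in the inner membrane of mitochondria. Complex II (succinate dehydrogenase) passes electrons from succinate to ubiquinone, complex III passes them from ubiquinol to cytochrome c, and complex IV (cytochrome c oxidase) passes them to oxygen, while complex V (ATP synthase) makes ATP from the proton gradient that complexes I, III and IV build. Complex II is encoded wholly in the nucleus, and complexes III, IV and V combine nuclear subunits with a few encoded by mitochondrial DNA. Several subunits of complex IV exist as muscle or heart forms and as more widely expressed forms, and the c ring of complex V is made from 3 genes, Atp5g1, Atp5g2 and Atp5g3, whose mature proteins are the same.

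Single myofibers were isolated from the tibialis anterior muscle of male mice, and the RNA of each was amplified for 18 cycles, labelled with Cy3 and hybridised to its own Agilent mouse array. The 3 groups were wild type (WT, 8 myofibers of 2 mice), mice in which Cre under the human skeletal actin promoter (HSA-Cre) deletes the floxed exon 7 of both Smn alleles (Smn1deltaSKM, 12 myofibers of 3 mice), and mice of the same genotype that were injected through the tail vein with GFP+, c-kit+ amniotic fluid stem cells (Smn1deltaSKM+AFS, 7 myofibers of 2 mice). The labels give an age of 3 months for all groups, and the methods add that treated mice were injected at that age and killed 1 month later. The study's text is not uniform on the numbers of treated myofibers and mice, and the labels were followed here. The methods name both littermates and GFP+ mice of the C57BL/6 strain as sources of control myofibers. An array measured the share of a transcript in the amplified RNA of a myofiber and of any cells attached to it, so that fewer cells of a type and less RNA per cell cannot be told apart.

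Levels are log2 processed signals after subtraction of the 75th percentile of that array. A probe counted as detected where its signal was well above background, and between 41.67% and 67.34% of probes were detected on an array. By group the share ran from 42.91% to 60.75% in WT, 41.67% to 67.34% in Smn1deltaSKM and 46.44% to 54.74% in Smn1deltaSKM+AFS. The subtracted 75th percentile also differed, from 6.51 to 7.30 in WT, 7.065 to 7.78 in Smn1deltaSKM and 6.49 to 7.22 in Smn1deltaSKM+AFS. Levels thus depend on this percentile, and other scalings are given below. The WT arrays shared 1 slide and a scan day used for no other group, so slide and genotype cannot be told apart. Smn1deltaSKM and Smn1deltaSKM+AFS shared scan days 1 and 2 but only slide 3, with 1 array of each, so slide and treatment were almost wholly confounded as well. One Smn1 probe, A_55_P2048848, lay at 1.86 and 1.84 in the WT mice and between -0.34 and 0.82 in the other 5 mice, while the other, A_55_P2048560, lay between 2.14 and 3.1 in all 7. Which of them lies in the deleted exon was not checked. All 7 myofiber markers, among them Acta1, Ckm and Pvalb, were detected in each group. Genes of other cell types were detected too, the fibroblast collagen Col1a2 and the leukocyte gene Ptprc on all 27 arrays, Col3a1 on 6 WT, 11 Smn1deltaSKM and 6 Smn1deltaSKM+AFS arrays and the satellite cell gene Cdh15 on 8, 11 and 7, whereas Myf5 (satellite cells) and Pdgfra (fibroblasts) were detected on none. The fast myosin Myh4 lay at 7.43, 7.01 and 6.96 in the 3 groups and the fast myosin Myh1 at 1.70, 3.905 and 5.15. Myh2 was detected on 4 of 27 arrays.

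Short motifs bound by 3 regulators of respiratory genes were looked for on both strands of the RefSeq promoters (GRCm38.p6 windows that end shortly after a start), which were found for 36 of the 47 genes. The NRF-1 motif GCGCATGCG stood in 7 of the 36 (19.4%) against 1.95% of 27025 genes, in Atp5g2, Atp5k, Atp5l, Cox6a1, Cycs, Uqcr11 and Uqcrc1. The GABP/ETS motif CCGGAAG stood in 12 (33.3%) against 9.93%, and the estrogen-related receptor (ERR) motif TCAAGGTCA in 2 (5.56%) against 0.466%. A match describes the letters only. The 100 bases just before the start of 5 genes that were lower in Smn1deltaSKM myofibers follow with the motif in capitals, Atp5g2, Atp5k and Cycs for NRF-1, Atp5g3 for ERR and Cox6b1 for GABP/ETS. All 5 lie on the minus strand, at chr15:102671048-102671147, chr5:108434400-108434499, chr6:50566570-50566669, chr2:73911327-73911426 and chr7:30626115-30626214, and are written 5′ to 3′ along the gene.
Atp5g2: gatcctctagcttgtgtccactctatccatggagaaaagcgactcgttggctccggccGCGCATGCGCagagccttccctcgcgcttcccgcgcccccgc
Atp5k: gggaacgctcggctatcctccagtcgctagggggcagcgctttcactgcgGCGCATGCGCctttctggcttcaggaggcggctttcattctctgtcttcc
Cycs: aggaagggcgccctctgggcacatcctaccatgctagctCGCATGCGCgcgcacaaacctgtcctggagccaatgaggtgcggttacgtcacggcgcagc
Atp5g3: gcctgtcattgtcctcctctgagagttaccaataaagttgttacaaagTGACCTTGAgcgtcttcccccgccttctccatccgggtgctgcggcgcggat
Cox6b1: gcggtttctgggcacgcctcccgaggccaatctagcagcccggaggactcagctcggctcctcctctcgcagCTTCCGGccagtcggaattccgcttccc
In Atp5g2 and Atp5k the capitals cover overlapping matches on both strands, and in Cycs, Atp5g3 and Cox6b1 the motif runs on the strand opposite to the gene.

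The first comparison asked how the subunit genes differ between Smn1deltaSKM and WT myofibers. Of the 44 subunit genes, 11 were lower in Smn1deltaSKM myofibers and 0 higher at an adjusted p under 0.05 (limma on the means of the mice, Benjamini-Hochberg over 16636 genes). Counting both directions, that is 25.0% of them against 22.0% of all genes, a share near the background. Counting each direction apart, 25.0% were lower against 13.9% of all genes, and 0% higher against 8.05%. The difference was below 0 for 40 of 44 subunit genes (90.9%) against 54.5% of all genes, with a median of -0.61 against -0.11. Every Smn1deltaSKM mouse lay below every WT mouse for 32 of 44 (72.7%) against 33.2% of the genes measured in all mice, and 23 (52.3%, all lower) passed an unadjusted p of 0.05 against 39.5% (23.4% lower).

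**Figure D1:**
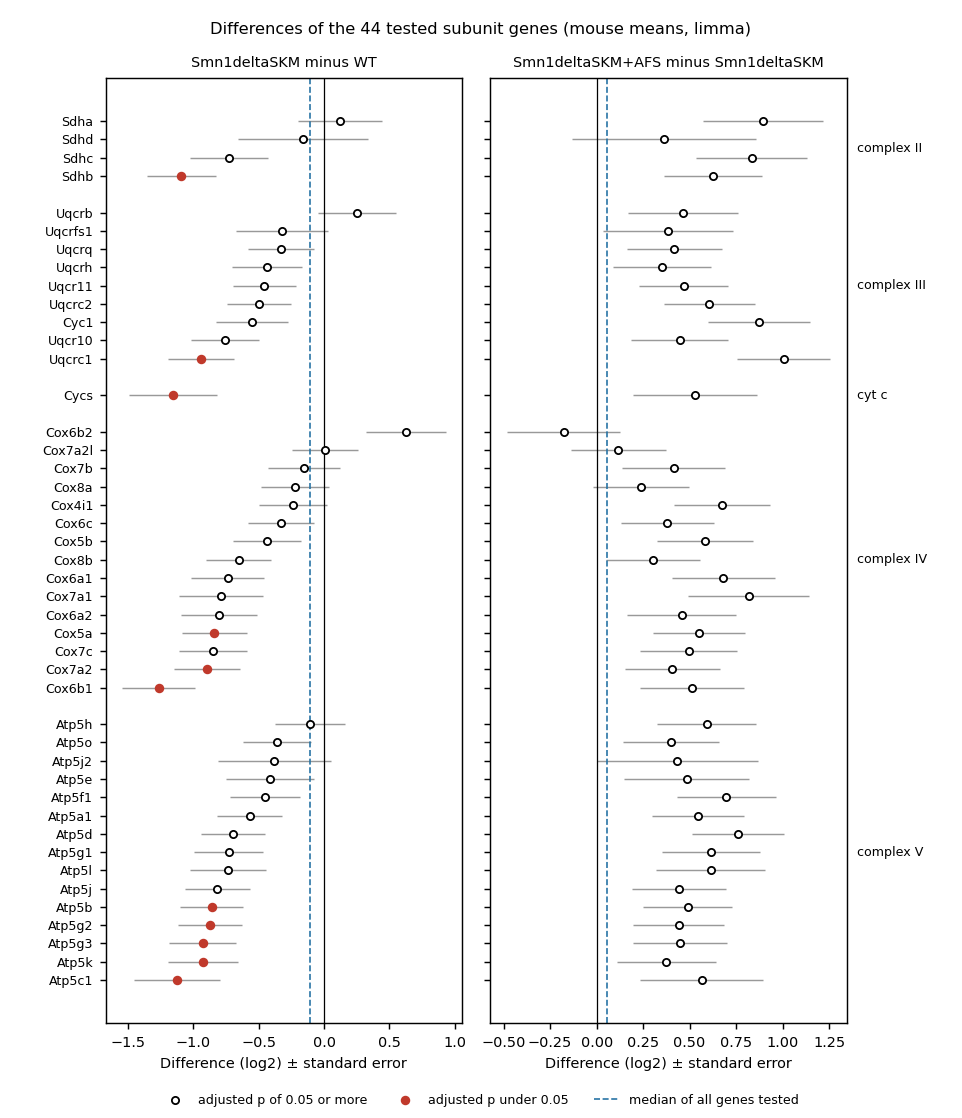
Difference of each of the 44 tested subunit genes on the log2 scale, with its standard error as a bar, for Smn1deltaSKM minus WT on the left and Smn1deltaSKM+AFS minus Smn1deltaSKM on the right, grouped by complex. Filled points have an adjusted p under 0.05 (11 on the left, 0 on the right), and the dashed line is the median of all 16636 genes.

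These calls depended on how arrays were scaled and on single mice. As reported, 3656 of all 16636 genes were called. With quantile normalization or the authors' own normalized values 0 of the 44 were called, beside 2729 and 2795 of all genes. With normexp and quantile normalization or with centring on the median of probes detected on all arrays 1 was called (Cox6b1), beside 2592 and 3121. Without WT mouse 1 or 2, which left 1 in the group, the subunit median was -0.61 and -0.58. With the slide as a random block (correlation 0.639) 0 of the 44 and 99 of all 16636 genes were called. The WT slide held no other group, so this fit cannot tell a dependence on the slide from one on genotype. The count was 1 without Smn1deltaSKM mouse 3 (1633 of all genes), 2 without Smn1deltaSKM mouse 2 (1372) and 16 without Smn1deltaSKM mouse 1 (7230). It was 2 with only the 2 groups compared (2765), and leaving out either treated mouse gave this same fit. Centring on that median moved the median of all genes by 0.22 and the share of lower genes among all calls from 63.3% to 42.5%. Relative to all genes the subunit median stood at -0.50 both as reported and with that centring. Both subtract 1 value from every probe of an array, so they could differ here only through missing values. The relative median was -0.24 with quantile normalization and -0.19 with normexp and quantile normalization. By gene, the call of Cox6b1 held under 16 and that of Sdhb under 11 of 22 other settings, while those of the other 9 genes held under 5 to 7 of 21 or 22. The smallest differences among these were -0.07 for Uqcrc1 and -0.18 for Atp5k, both with normexp and quantile normalization, and -0.15 for Atp5c1 with the mean of all its probes. The 22 settings are not all separate, since comparing only the 2 groups and leaving out either treated mouse are the same fit, counted each time.

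Within complex II, Sdhb, the iron-sulfur subunit, was lower in Smn1deltaSKM. Its level lay between 5.60 and 6.46 in the WT myofibers (median 6.03), between 3.93 and 5.75 in the Smn1deltaSKM myofibers (median 5.07) and between 5.01 and 6.46 in the Smn1deltaSKM+AFS myofibers (median 5.43). Of 12 Smn1deltaSKM myofibers, 11 fell short of the WT range. Such counts of myofibers, here and below, describe genes already called and myofibers of few mice. The share over all genes was not counted. The difference between mouse means was -1.09 (SE 0.27, limma adjusted p = 0.0257). Sdhc, one of the membrane anchors, gave a difference of -0.73 (adjusted p = 0.109). Sdha, the flavoprotein that oxidises succinate, gave a difference of 0.12 (SE 0.32, adjusted p = 0.802), which became -0.08 without Smn1deltaSKM mouse 1, and the membrane anchor Sdhd one of -0.16 (adjusted p = 0.831), which became -0.64 without fiber 2 of WT mouse 1, at -0.04. In the same complex, then, the catalytic pair Sdha and Sdhb gave differences of opposite sign, of which only that of Sdhb passed the test.

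Complex III had 1 called gene of 9, beside 13.9% of all genes called lower. Uqcrc1, a core subunit on the matrix side, lay between 5.66 and 6.82 in WT myofibers (median 6.44) and between 4.53 and 6.10 in Smn1deltaSKM myofibers (median 5.52), with a difference of -0.94 (SE 0.25, adjusted p = 0.0344). The ranges overlapped, with 6 of 12 Smn1deltaSKM myofibers below the lowest WT one. The other core subunit, Uqcrc2, gave -0.50 (adjusted p = 0.167), the haem-bearing Cyc1 gave -0.55 (adjusted p = 0.171) and the small subunit Uqcr10 gave -0.76 (adjusted p = 0.0675). Uqcrb, which binds ubiquinone with cytochrome b, was the single gene of this complex above 0, at 0.25 (SE 0.30, adjusted p = 0.552). Its WT mice lay at 5.84 and 5.94 and its Smn1deltaSKM mice at 6.50, 6.13 and 5.81, so the groups overlapped. The median over complex III was -0.46.

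Cytochrome c itself, encoded by Cycs, carries electrons from complex III to complex IV. It lay between 5.98 and 6.80 in WT myofibers (median 6.31) and between 4.07 and 5.95 in Smn1deltaSKM myofibers (median 5.12), so that no Smn1deltaSKM myofiber reached the WT range. The mice lay at 6.32 and 6.38 in WT and at 5.67, 5.16 and 4.75 in Smn1deltaSKM, a difference of -1.16 (SE 0.33, adjusted p = 0.0420).

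In complex IV, 3 of 15 subunit genes were lower, beside 13.9% of all genes, and the median difference was -0.65. Cox6b1, which faces the intermembrane space and joins the monomers of the enzyme, had the lowest difference of all 44 at -1.27 (SE 0.28, adjusted p = 0.0208). It lay between 5.83 and 6.63 in WT myofibers (median 6.32), between 3.77 and 5.66 in Smn1deltaSKM myofibers (median 5.09) and between 4.93 and 6.60 in Smn1deltaSKM+AFS myofibers (median 5.37). No Smn1deltaSKM myofiber reached the WT range, and the call was lost with quantile normalization. With 1 mouse left out the difference ran from -1.36 to -1.09. Cox5a, an early subunit of assembly on the matrix side, lay between 5.89 and 6.76 in the 7 WT myofibers with a value and between 4.72 and 6.32 in Smn1deltaSKM myofibers, with a difference of -0.84 (SE 0.25, adjusted p = 0.0452). Cox7a2, the form of subunit VIIa found in most tissues, ran from 6.21 to 7.22 in WT and from 5.34 to 6.27 in Smn1deltaSKM, with a difference of -0.89 (SE 0.26, adjusted p = 0.0410). For both genes 10 of 12 Smn1deltaSKM myofibers lay below the lowest WT one.

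Complex IV subunits with a muscle form and a more widely expressed form were set side by side. The muscle form Cox6a2 gave -0.80 (SE 0.29, adjusted p = 0.0801) and the wider form Cox6a1 -0.74 (SE 0.28, adjusted p = 0.0877), and the muscle form Cox7a1 gave -0.79 (SE 0.32, adjusted p = 0.109) beside the -0.89 of Cox7a2. The muscle form Cox8b gave -0.65 (SE 0.25, adjusted p = 0.0919) and the wider form Cox8a -0.22 (SE 0.26, adjusted p = 0.546). The difference within a pair was not tested. Cox4i1, the common form of subunit IV, gave -0.24 (SE 0.26, adjusted p = 0.520), and both Cox4i1 and Cox8a turned above 0 with quantile normalization, at 0.09 and 0.06. Cox4i2, the form induced by low oxygen, was detected on 15 arrays only (5 WT, 7 Smn1deltaSKM and 3 Smn1deltaSKM+AFS) and Cox7b2 and Cox8c on none, so these 3 were not tested.

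Cox6b2, known from testis as the counterpart of Cox6b1, had the highest difference of the 44. It lay at -1.10 and -1.11 in the WT mice and at 0.01, -0.71 and -0.75 in the Smn1deltaSKM mice, a difference of 0.63 that did not pass the test (SE 0.31, adjusted p = 0.165). Every Smn1deltaSKM mouse lay above every WT mouse, which held for 1 of 44 subunit genes (2.27%) against 22.4% of the genes measured in all mice. Cox7a2l, which joins complexes III and IV in supercomplexes, gave a difference of 0.01 (SE 0.26).

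All 15 tested genes of complex V had a difference below 0 (54.5% of all genes did), with a median of -0.73. At the threshold 5 were lower, beside 13.9% of all genes. Among the catalytic F1 subunits, Atp5b (subunit beta) lay between 5.78 and 6.49 in WT myofibers (median 6.32) and between 4.84 and 5.84 in Smn1deltaSKM myofibers (median 5.60), with a difference of -0.86 (SE 0.24, adjusted p = 0.0392). Its partner Atp5a1 (subunit alpha) gave -0.57 (SE 0.25, adjusted p = 0.127). Atp5c1, the rotating gamma subunit, lay between 4.57 and 5.66 in WT myofibers and between 2.93 and 5.23 in Smn1deltaSKM myofibers, with a difference of -1.13 (SE 0.33, adjusted p = 0.0441). Of 12 Smn1deltaSKM myofibers, 11 lay below the lowest WT value for Atp5b and 9 for Atp5c1.

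Of the 3 genes of the c ring, Atp5g2 and Atp5g3 were lower at the threshold. Atp5g2 ran from 6.69 to 7.62 in WT and from 5.83 to 6.72 in Smn1deltaSKM (difference -0.88, SE 0.25, adjusted p = 0.0393). Atp5g3 ran from 5.77 to 6.63 in WT and from 4.27 to 5.54 in Smn1deltaSKM (difference -0.93, SE 0.26, adjusted p = 0.0369). For Atp5g3 the groups did not overlap, and for Atp5g2 11 of 12 Smn1deltaSKM myofibers lay below the lowest WT one. Atp5g1 gave -0.73 (SE 0.27, adjusted p = 0.0797). Atp5k, the small subunit e that helps the enzyme to form dimers, ran from 5.59 to 6.59 in WT and from 4.58 to 5.68 in Smn1deltaSKM (difference -0.93, SE 0.27, adjusted p = 0.0425). At the other end stood Atp5h, subunit d of the peripheral stalk, at -0.11 (SE 0.27, adjusted p = 0.785), which turned to 0.24 with quantile normalization. Of the 11 genes called over all complexes, 4 held the NRF-1 motif (Atp5g2, Atp5k, Cycs and Uqcrc1), 3 the GABP/ETS motif (Atp5k, Cox6b1 and Sdhb) and 1 the ERR motif (Atp5g3) in the RefSeq promoter.

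**Figure D2:**
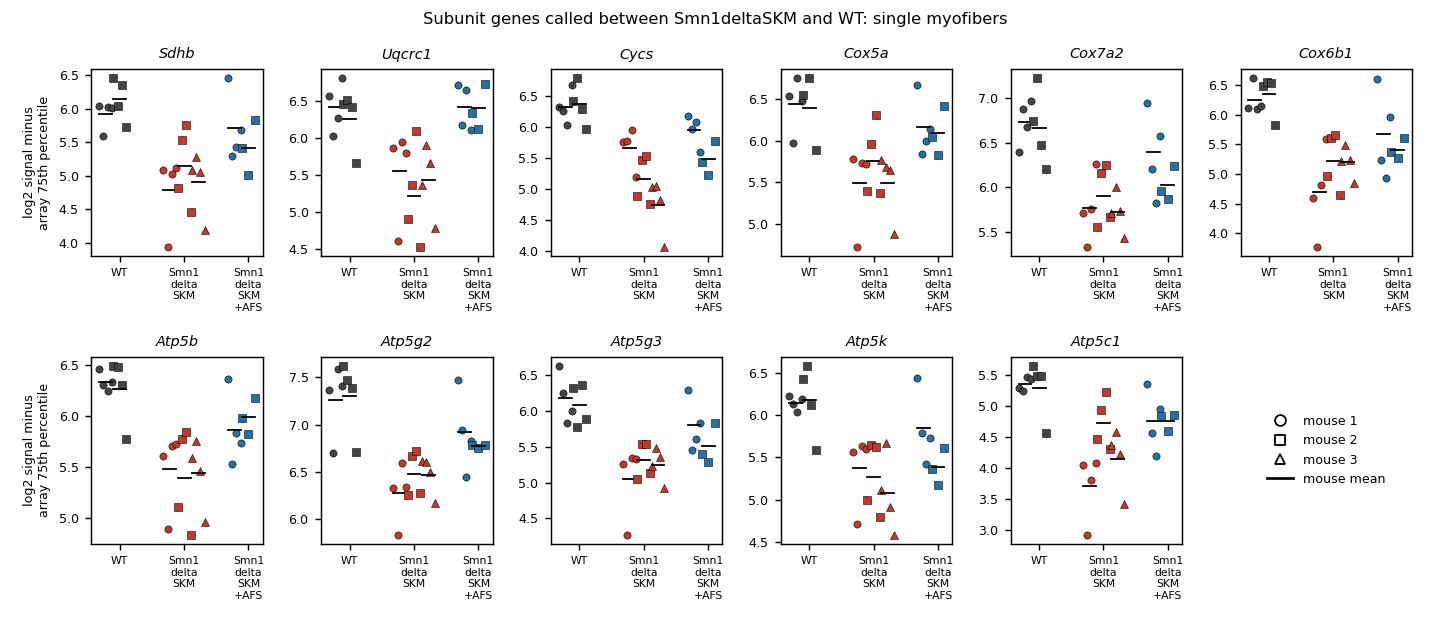
Levels of the 11 called genes in each myofiber (log2 signal minus the 75th percentile of the array), by group, with the shape of a point for the mouse and a bar for the mean of each mouse. For Cycs, Cox6b1 and Atp5g3 no Smn1deltaSKM myofiber reaches the WT range. The genes shown were chosen by this same comparison, and the share of all genes with such a gap was not counted. Between mice, every Smn1deltaSKM mouse lay below every WT mouse for 33.2% of the genes measured in all mice.

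A gene was represented by its brightest tested probe, and where several probes were tested they had the same sign except in Atp5c1, Cox7a2l, Cox8a and Uqcrb. For Atp5c1 the brighter probe, A_55_P2150906, gave -1.13 and the other probe, A_55_P2150908, gave 0.83 between Smn1deltaSKM and WT. The first lies at chr2:9977665-9977724 (mm9, minus strand, by the array design) and the second spans chr2:9977788-9980644, longer than its 60 bases. Their first 30 bases are shown because they gave opposite signs for the same gene.
A_55_P2150906: ccactgagttacaaaggcagcaggatgttt
A_55_P2150908: tcatctctgggactgctgctctggattaat
Of the 11 genes called, Atp5c1 was therefore the one whose direction rested on the choice of probe. With each of the 22154 probes tested on its own, the other probe of the called genes Cycs, Sdhb, Atp5k and Atp5g2 gave -0.69, -0.55, -0.40 and -0.25 and did not pass (limma adjusted p = 0.145, 0.150, 0.354 and 0.582). Conversely, Uqcr10 and Sdhc, not called by their brightest probe, had another probe that passed, A_55_P2136765 at -1.35 (adjusted p = 0.0170) and A_55_P2146780 at -1.10 (adjusted p = 0.0352). Atp5l, subunit g, had 5 tested probes between -0.73 and -0.44, all on chr9 within 44721315 to 44721483 (mm9, minus strand), and 3 of them share a stretch that differs by a few bases, capitalised against the first. The second carries C16A, A17G and G18A and the third A17G and T22C, counted from 1 at the 5′ end of the stretch.
A_55_P2000909: ttggaccatgtgtaacaggactgctatctg
A_55_P2024021: ttggaccatgtgtaaAGAgactgctatctg
A_55_P2026669: ttggaccatgtgtaacGggacCgctatctg
These 3 probes gave -0.73, -0.46 and -0.44.

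**Figure D3:**
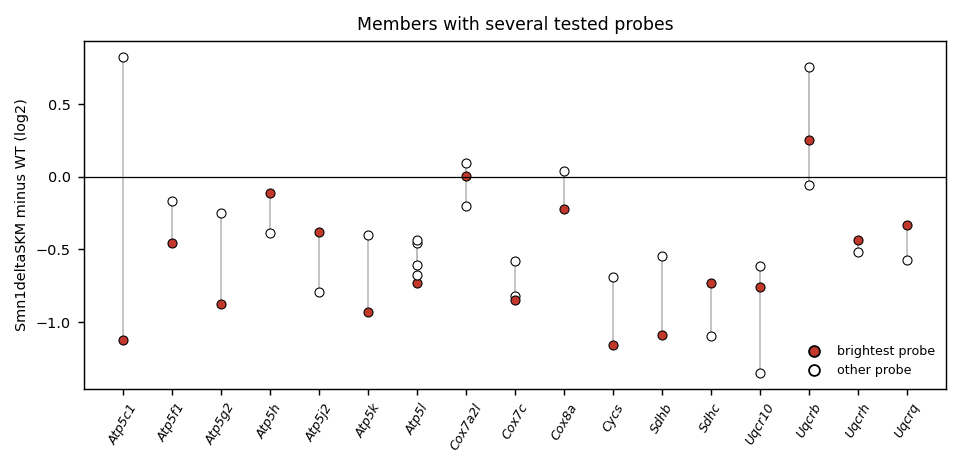
Difference between Smn1deltaSKM and WT (log2) for each tested probe of the genes with more than 1 tested probe, with the brightest probe of the gene filled. The probes of Atp5c1 lie at -1.13 and 0.83, and those of Atp5l between -0.73 and -0.44.

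Other genes of the same pathway were tested beside these subunits. Complex I was represented by 38 genes taken by name alone (Ndufa, Ndufb, Ndufc, Ndufs and Ndufv). Of these, 9 were lower (23.7% against 13.9% of all genes) and 0 higher in Smn1deltaSKM (median -0.60). Among them were Ndufs5 at -1.56 (adjusted p = 0.0123) and Ndufb4 at -1.38 (adjusted p = 0.0202). A name does not make each a complex I subunit, and the place of Ndufa4 (-1.02, adjusted p = 0.0298), also among the 9, was not checked. Of 13 protein genes of mitochondrial DNA, 6 were on the array and 4 of these (66.7%) were lower (ND1, ND3, ND4L and ND6, between -1.04 and -0.94), with a median of -0.95. Of 7 tested assembly factors 3 (42.9%) were lower, Sdhaf2 for complex II at -1.12 and Atpaf1 and Atpaf2 for the F1 part of complex V at -1.43 and -0.95. The mitochondrial phosphate carrier Slc25a3 fell by 1.24 (adjusted p = 0.0208), as the only one of 4 partners of ATP synthase to pass. Of 8 transcriptional regulators 0 passed (limma; 1 at an unadjusted p of 0.05), with Nrf1 at -1.01 (adjusted p = 0.0512) and the coactivator Ppargc1a at 0.57 (adjusted p = 0.312).

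Markers of other kinds also moved between these groups, and their part in the result was not tested. All 7 myofiber markers were below 0 (median -1.30), of which Ckm fell by 1.76, Mylpf by 1.99 and Casq1 by 1.30 (adjusted p = 0.0214, 0.0160 and 0.0197), and the log2 of their summed signal ranged from 10.66 to 11.44 in WT, 10.15 to 10.88 in Smn1deltaSKM and 10.58 to 11.10 in Smn1deltaSKM+AFS. The fast myosin Myh1 rose by 2.20 (adjusted p = 0.0224). Of 4 tested leukocyte markers Ptprc rose by 1.33 (adjusted p = 0.0213) and Cd68 by 3.00 (adjusted p = 0.0369), while Csf1r and Itgam gave -0.50 and -0.14 (adjusted p = 0.162 and 0.702). The summed signal of the list ranged from 7.63 to 8.29 in WT (median 8.00) and 7.55 to 8.02 in Smn1deltaSKM (median 7.85). Itgam, at 7.84 in WT and 7.70 in Smn1deltaSKM, made up most of that sum. It could therefore not show a change of Cd68 (-1.09 and 1.90) or Ptprc (-1.37 and -0.04). The summed signal of the 5 fibroblast markers ranged from -0.39 to 6.85 in WT (median 1.18) and 0.59 to 5.10 in Smn1deltaSKM (median 3.50), with Dcn detected on 1 of 8 and 12 of 12 arrays. Col1a2 and Col3a1 gave 1.20 and 1.07 (adjusted p = 0.174 and 0.426). The 2 Schwann cell markers were detected on few arrays, S100b on 2 of 27. The erythroid gene Hba-a1 was detected on 6 of 8 WT and 12 of 12 Smn1deltaSKM arrays, with a difference of 1.46 (adjusted p = 0.290).

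The second comparison asked how the subunit genes differ between Smn1deltaSKM mice with and without injected stem cells. No subunit gene passed the test, with 0 of 44 and 0 of 16636 genes called by limma after adjustment (0%). Most differences nevertheless pointed upward, with 43 of 44 above 0 (97.7%) against 57.3% of all genes and a median of 0.49 against 0.06. At an unadjusted p under 0.05, 12 of 44 stood out (27.3%, all higher) against 3.20% of all genes, of which 2.73% were higher. Each Smn1deltaSKM+AFS mouse lay above each Smn1deltaSKM mouse for 36 of 44 (81.8%) against 12.4% of the genes measured in all these mice. This comparison shares the 3 Smn1deltaSKM mice with the first, so the values of the 2 comparisons are not independent.

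By complex, the median difference was 0.73 for complex II, 0.46 for complex III, 0.53 for cytochrome c, 0.46 for complex IV and 0.49 for complex V. Uqcrc1 had the highest difference at 1.01 (SE 0.25, unadjusted p = 0.00368, limma adjusted p = 1). Its mice lay at 5.56, 5.22 and 5.43 in Smn1deltaSKM and at 6.42 and 6.40 in Smn1deltaSKM+AFS, beside 6.42 and 6.26 in WT. All 7 Smn1deltaSKM+AFS myofibers lay above the highest Smn1deltaSKM myofiber. The next were Sdha at 0.89, Cyc1 at 0.87, Sdhc at 0.83 and Cox7a1 at 0.82, each with an adjusted p of 1. The single gene below 0 was Cox6b2 at -0.18, which turned to 0.07 without Smn1deltaSKM mouse 1, and Cox8b, at 0.30, turned to -0.01 with quantile normalization.

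Within scan day 2, where the groups lay on different slides but for 1 array each, the median difference was 0.55 against 0.06 for all genes, and with the day as a block it was 0.52. Within scan day 1, with 1 mouse and 3 arrays of Smn1deltaSKM and 1 mouse and 2 arrays of Smn1deltaSKM+AFS, it was 0.40 with 41 of 44 above 0, against 0.21 for all genes. Within slide 3, with 1 array of mouse 1 of each group, it was 0.32 with 39 of 44 above 0, against 0.12 and 59.3% for all genes, and with the slide as a random block it was 0.47. Single mice moved the size, since the median was 0.36 without Smn1deltaSKM+AFS mouse 1 and 0.61 without mouse 2, and it was 0.24 with quantile normalization. All 38 genes with an Nduf name (median 0.50), all 6 genes of mitochondrial DNA (median 0.54) and all 7 myofiber markers (median 0.46) were above 0 as well, none of them called. The 4 leukocyte markers lay on both sides of 0 (Ptprc -0.145, Cd68 -0.12, Csf1r 0.10, Itgam 0.25), as did the collagens Col1a2 and Col3a1 at 0.09 and -0.05. The fast myosin Myh1 gave 1.25 (unadjusted p = 0.0376, limma adjusted p = 1). The part of these markers in the result was not tested.

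**Figure D4:**
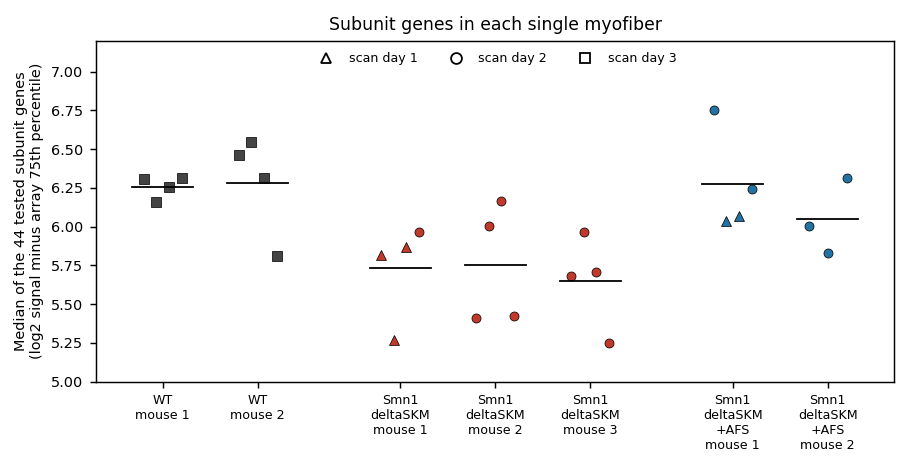
Median level of the 44 subunit genes in each of the 27 myofibers (log2 signal minus the 75th percentile of the array), by mouse, with a bar for the mean over the myofibers of a mouse and the shape of a point for the scan day. WT myofibers range from 5.81 to 6.55, Smn1deltaSKM from 5.25 to 6.16 and Smn1deltaSKM+AFS from 5.83 to 6.76.

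The third comparison set the treated mice beside WT. Of the 44 subunit genes 0 were called by limma against 7.81% of all genes, and 2 passed an unadjusted p of 0.05 (4.55%) against 29.7%. The differences lay on both sides, with 20 below 0 (45.5% against 51.9% of all genes) and 24 above 0 (54.5% against 48.1%) and a median of 0.02 against -0.04. The median changed sign without WT mouse 1 (-0.11) and without Smn1deltaSKM+AFS mouse 1 (-0.11). A p above the threshold does not show that the levels are alike, and single genes lay well off 0. Sdha gave a difference of 1.02 (SE 0.36, adjusted p = 0.106), with 3.94 and 4.50 in the treated mice and 3.25 and 3.16 in WT. Cox6b1 gave -0.75 (SE 0.31, adjusted p = 0.147), with 5.68 and 5.41 against 6.25 and 6.35. Cycs gave -0.63 (SE 0.37, adjusted p = 0.284) and Uqcrb 0.72 (SE 0.32, adjusted p = 0.182). Beside the subunits, the fast myosin Myh1 was higher than in WT by 3.45 (limma adjusted p = 0.0184). All 7 myofiber markers were below 0 (median -0.76, 0 called), as were 5 of 6 genes of mitochondrial DNA (median -0.35, 0 called). Of the 38 genes with an Nduf name 23 were below and 15 above 0 (median -0.11), with Ndufs5 called at -1.21 (adjusted p = 0.0478). The part of these genes in the result was not tested.

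Beside the subunits, the names chosen by the rule held genes that passed the test on their own. Uqcc, the complex III assembly factor, lay at 2.37 and 1.86 in WT mice, at 2.29, 2.06 and 2.49 in Smn1deltaSKM mice and at 3.49 and 3.28 in Smn1deltaSKM+AFS mice. The treated mice lay above all others, with a difference of 1.28 from WT (SE 0.31, adjusted p = 0.0469) and 1.11 from Smn1deltaSKM (SE 0.29, unadjusted p = 0.00425, adjusted p = 1). The call against WT held under 12 of 21 other settings. Atp5sl lay at 3.24 and 3.51 in WT mice, 1.94, 1.77 and 2.27 in Smn1deltaSKM mice and 2.23 and 2.47 in Smn1deltaSKM+AFS mice, a difference of -1.38 between Smn1deltaSKM and WT (SE 0.28, adjusted p = 0.0160). Here 11 of 12 Smn1deltaSKM myofibers lay below the lowest WT one. The call held under 17 of 22 other settings, which count the same fit more than once, as for Cox6b1. Cox4nb gave 0.57 (adjusted p = 0.539), and Atp5s was detected on too few arrays (18 of 27) to be tested.

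**Figure D5:**
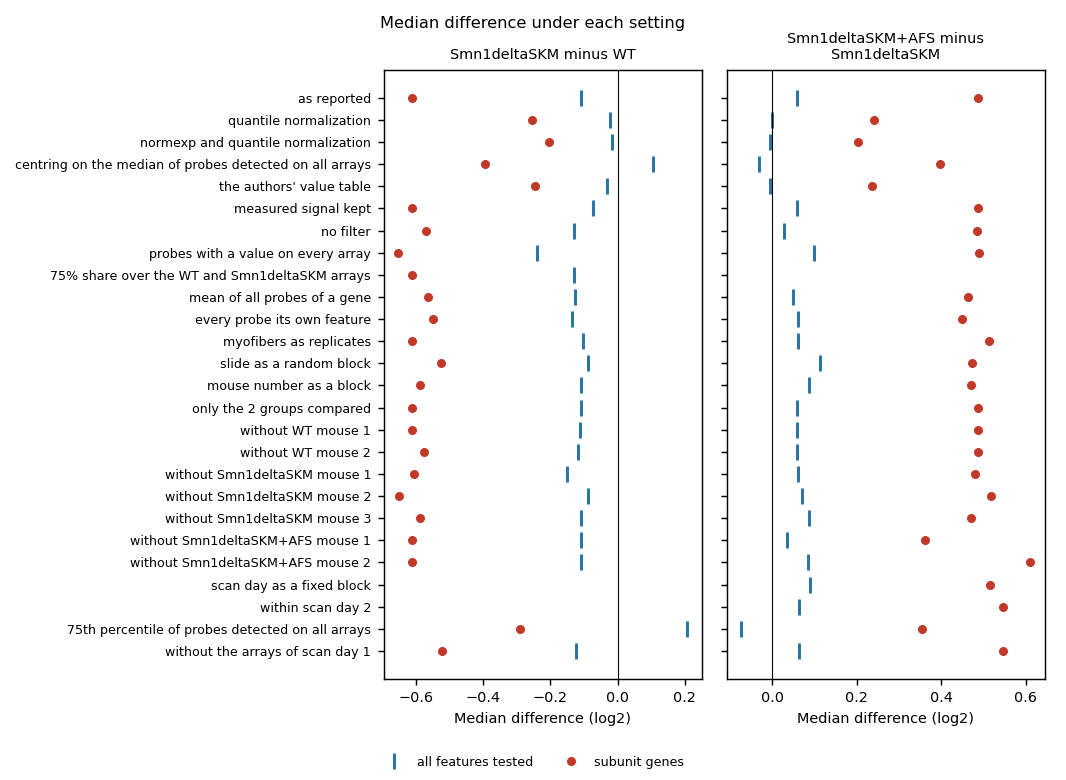
Median difference (log2) of the subunit genes (points) and of all features tested (bars) under each setting, for Smn1deltaSKM minus WT on the left and Smn1deltaSKM+AFS minus Smn1deltaSKM on the right. The subunit median runs from -0.65 to -0.20 on the left and from 0.20 to 0.61 on the right, below and above the median of all features under every setting shown.

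Myofibers of the same mouse also differed. Over the 44 genes the SD among the myofibers of a mouse, pooled over mice, had a median of 0.40, and it ran from 0.25 for Cox7b, a small subunit of complex IV, to 1.00 for Sdhd. Sdhd, Uqcrfs1 (the Rieske iron-sulfur protein of complex III, SD 0.75) and Sdha (SD 0.71) varied most. In WT mouse 1 the SD of Sdhd among 4 myofibers was 2.01, and 0.65 without fiber 2, which lay at -0.04. That of Uqcrfs1 among the 3 myofibers with a value was 1.98, and 0.38 without fiber 1 at 2.10, and the pooled SD of Sdhd, Uqcrfs1 and Sdha without the farthest myofiber was 0.69, 0.40 and 0.60. The median over all 44 subunit genes in a myofiber ran from 5.81 to 6.55 in WT (median 6.31), from 5.25 to 6.16 in Smn1deltaSKM (median 5.76) and from 5.83 to 6.76 in Smn1deltaSKM+AFS (median 6.07). The 3 ranges overlapped. On the quantile scale the group medians were 13.25, 13.00 and 13.20.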

How the data were processed

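Scanner files of 27 single-myofiber arrays (SurePrint G3 Mouse, Cy3) were used. The authors deposited them with processed signal intensity from Agilent Feature Extraction 10.7.3.1 (background-subtracted, linear scale), and a normalized intensity table, used as an alternative. Outlier and control spots were left out, spots of a probe averaged on the log2 scale, and the 75th percentile of each array subtracted. A probe needed a signal well above background on 75% of arrays, and signals not above it were treated as missing. Myofibers were averaged within a mouse, since the mouse is the replicate (7 mice), and groups were compared with limma 3.58.1 in R 4.3.3 (lmFit, eBayes, Benjamini-Hochberg), tested on simulated data. The study's own test, which takes myofibers as replicates, was replaced by limma on myofibers as an alternative. The brightest tested probe stood for a gene. Genes named are those called, the extremes of each complex, the muscle and ubiquitous pairs, the c-ring genes, Sdha and Atp5a1, and any further subunit was chosen after its values were seen. The members and lists were chosen with earlier results of these data known. No member spot was saturated (0). The number of arrays and mice limits the precision. The 75th percentile over probes detected on all arrays the fit without scan day 1, and the values within slide 3 and without single myofibers were chosen after seeing the data.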

Additional observations from a re-analysis of the deposited data

Results flagged for a closer look

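The 26 named genes in 3 groups made 78 sets of myofibers, of which 25 Smn1deltaSKM sets with over 10 values and 1 set with under 4 were not tested. In 6 of the other 52 (11.5%) a single myofiber lay apart from the rest of its group by Dixon's test, which flags about 1 set in 20 by chance. The sets come from the same arrays and are not independent, so the 2 shares cannot be weighed against each other. WT mouse 2 fiber 4 was low for Atp5b, at 5.78 with the nearest at 6.25 (6.245) and the median at 6.32, and low for Atp5c1, at 4.57 with the nearest at 5.25. WT mouse 1 fiber 1 was low for Cox6a2, at 6.43 with the nearest at 7.75 (7.745). Smn1deltaSKM+AFS mouse 1 fiber 1 was high for Cox6a2, at 8.38 with the nearest at 7.65, and for Cox7a1, at 8.46 with the nearest at 7.68. Smn1deltaSKM mouse 2 fiber 1 was high for Cox4i2, at 1.82 with the nearest at -0.86, among the 7 myofibers of that group with a value.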

How the results depend on the processing

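For Smn1deltaSKM against WT, 11 subunit genes and 3656 of all genes were called. The subunit count was 0 with quantile normalization, the authors' values and the slide as a random block (2729, 2795 and 99 of all genes). It was 1 with normexp and quantile normalization (2592) and with median centring (3121). Without a detection filter it was 2 (2768 of 24616, with 45 subunit genes tested), and with only the 2 groups compared 2 (2765). With myofibers as replicates the count was 28 (27 lower, 1 higher), beside 9082 of all genes. It was 9 without scan day 1 (5024) and 0 with the 75th percentile over probes detected on all arrays (2802). Both settings were chosen after seeing the data. With 1 Smn1deltaSKM mouse left out it ran from 1 to 16, beside 1372 to 7230 of all genes. The median of -0.61 was -0.26, -0.20, -0.40, -0.25 and -0.29 with quantile normalization, normexp, median centring, the authors' values and that percentile, which moved the median of all genes by 0.32 and put 30.4% of all calls lower, and -0.65 to -0.58 with 1 mouse left out. Among genes, Atp5h was 0.24, 0.18, 0.11, 0.26 and 0.21 in these settings in turn, 0.028 without scan day 1, 0.046 without WT mouse 2 and 0.017 without Smn1deltaSKM mouse 1. Cox4i1 was 0.094, 0.006, 0.126 and 0.080 and Cox8a 0.061, 0.199, 0.058 and 0.097 with quantile normalization, normexp, the authors' values and that percentile. Sdha was -0.084 without Smn1deltaSKM mouse 1 and -0.35 without scan day 1, and Uqcc ran from -0.091 (without WT mouse 2) to 0.424 with 1 mouse left out.

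For Smn1deltaSKM+AFS against Smn1deltaSKM the count was 0 under every setting that kept both treated mice. With myofibers as replicates, which ignores that they share mice, 36 subunit genes passed an unadjusted p of 0.05, beside 2202 of all genes (limma). Among the other settings with both treated mice this number ran from 2 to 19. It was 2 with quantile normalization (405 of all genes) and 19 with the scan day as a block (1376). The median of 0.49 was 0.24, 0.20, 0.24 and 0.36 (0.355) with quantile normalization, normexp, the authors' values and that percentile, and 0.36 to 0.61 with 1 mouse left out. Cox8b was -0.01 with each of the first 3 (-0.005, -0.013 and -0.015), and Cox6b2 ran from -0.31 to 0.067 (without Smn1deltaSKM mouse 1) with 1 mouse left out. For Smn1deltaSKM+AFS against WT the count of 0 became 5 with myofibers as replicates (6932 of all genes). It was 2 without Smn1deltaSKM mouse 1 (4836) and 0 without Smn1deltaSKM mouse 2 or 3 (543 and 514). The median of 0.02 was 0.15 with median centring, 0.21 with that percentile and -0.01 with the mean of all probes (-0.006) or the slide block (-0.008). With 1 mouse left out it ran from -0.113 to 0.071. Cycs was 0.021 with normexp. The cause of these changes was not tested. Of the other values for named genes, 359, 569 and 107 in the 3 comparisons kept their direction and their side of the threshold, and 163, 0 and 9 lost their call. Settings that leave 1 mouse in a group outside the comparison repeat the fit of only the 2 groups, so these counts hold it repeatedly.

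Mouse numbers are shared between groups, yet nothing in the labels ties same-numbered mice together. Deviations of same-numbered mice correlated at 0.15 and 0.04 between WT and Smn1deltaSKM, at -0.07 between WT and Smn1deltaSKM+AFS, and at 0.31 and 0.19 between Smn1deltaSKM and Smn1deltaSKM+AFS. No 2 groups share 3 numbers, and deviations within a group of 2 mirror each other, so these values could not show pairs and the numbers were not taken as such. The mice numbered 1 of both Smn1deltaSKM groups are the only ones on scan day 1 and on slide 3. With the mouse number as a replicate block, 1 subunit gene (Cox6b1) and 2375 of all genes were called between Smn1deltaSKM and WT. In the other 2 comparisons 0 were called, beside 0 of all genes against Smn1deltaSKM and 921 against WT. With 2 or 3 mice a group, leaving 1 out assumes that a lone mouse varies like the others.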
